A study of Mus musculus with 8 samples.

Results

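Monocyte transcripts were followed in the parietal bone of mouse pups through 10 marker genes, 6 of the classical subset (Ly6c2, Ccr2, Plac8, Chil3, Ifitm6 and F10) and 4 of the nonclassical subset (Treml4, Ace, Spn and Nr4a1). The genes were taken by symbol from a count table of 27133 genes, and all 10 were found and passed the filter on low counts. The parietal bone, a flat bone of the skull roof that holds marrow, came from C57BL6J pups that received either a control isotype antibody or an antibody blocking CSF1R, the receptor for CSF1 and IL-34. The antibodies were given through the skull on days 2, 4 and 6 after birth, and on day 9 the pups were perfused and the bone collected. Every pup thus received an antibody and was perfused, and the groups differed by the antibody alone as far as the labels state. There were 4 poly(A) libraries per group, named here by the number in their titles (isotype 2, 3, 4 and 5, anti-CSF1R 7, 8, 9 and 10). In the titles each library has its own number after the letters ms, which are not spelled out. The labels do not otherwise tie the libraries to separate pups, so p-values measure the spread between libraries, which may be technical. Neither the antibody clone nor its dose is given in the sources used here.

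Monocytes are made in the marrow from granulocyte and monocyte progenitors and circulate as classical cells, marked in the mouse by high Ly6C and the chemokine receptor CCR2, and as nonclassical cells, marked by low Ly6C and high CX3CR1. Classical monocytes leave the marrow through CCR2 and feed tissue macrophages and osteoclast precursors, and a part of them converts to nonclassical monocytes, which patrol the vessel wall and need the nuclear receptor NR4A1. Nonclassical monocytes and most tissue macrophages are known to depend on CSF1R signalling more than classical monocytes do.

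The libraries held 57.5 M to 69.1 M counts each, and 82.8% to 84.7% of the counts from 1 to 10 were even, the pattern of counting both mates of a pair, so fewer fragments lie behind the values than counts. Isotype libraries 3 and 4 stood apart. Over genes, the GC content of a transcript went with its excess over the median library in them (Spearman correlation 0.669 and 0.656, against -0.381 to -0.032 in the other 6), and their share of mitochondrial counts was 0.847% and 0.855%, against 2.03% to 2.80% in the rest. Each marker is therefore also given with isotype 2 and 5 as the only controls and with an offset for GC content and transcript length. As a check on the treatment, Csf1r itself fell from 238 to 549 CPM (counts scaled to a common library total) in the 4 isotype libraries to 39.4 to 64.4 CPM with anti-CSF1R (edgeR log2 fold change -2.66 ± 0.32 SE, adjusted p = 0.0156). That call was lost when any 1 of the anti-CSF1R libraries was left out (edgeR BH-adjusted p = 0.0564 to 0.0812).

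Ly6c2 has a near copy, Ly6c1, which endothelial cells also express, and reads must be told apart by a few bases. The coding sequences of both genes in GENCODE M21 are 396 bases long and differ at 9 of them (97.7% identity), with an identical run of 188 bases from position 66 to 253. Bases 1 to 150, counted from the A of the start codon, are shown 5′ to 3′ because they hold 6 of the 9 differences, which are in capitals.
Ly6c2: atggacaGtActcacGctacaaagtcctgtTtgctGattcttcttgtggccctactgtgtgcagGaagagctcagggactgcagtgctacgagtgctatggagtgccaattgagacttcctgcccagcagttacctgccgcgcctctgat
Ly6c1: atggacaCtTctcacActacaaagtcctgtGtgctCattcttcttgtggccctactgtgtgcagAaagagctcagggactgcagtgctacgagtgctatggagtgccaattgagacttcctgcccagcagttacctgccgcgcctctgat
Of the 766 windows of 101 bases, the read length, in the coding transcripts of Ly6c2, 112 (14.6%) also occurred in Ly6c1. The same count gave 52 of 1487 (3.50%) for Chil3 in Chil4. The handling of reads that map to several places is not stated in the sources used here, and the values of Ly6c2 carry that uncertainty. Chil4 had 0 counts in 6 libraries, 1 in isotype 5 and 2 in anti-CSF1R 10. Ifitm6, F10, Ace, Nr4a1 and Treml4 shared no window of this length with the paralogs compared.

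Set per length, Ace was the most abundant of the 10 genes in isotype bone, at 18.9 CPM per kilobase of its longest coding transcript. Nr4a1 (8.44), Plac8 (6.99), Ly6c2 (3.98), Chil3 (3.37) and Ifitm6 (2.54) followed, in the same unit, and then Spn (1.74), Ccr2 (0.741), F10 (0.432) and Treml4 (0.424). Between neighbours in that order, only the ranges of Ace (14.6 to 26.6 CPM per kilobase) and Nr4a1 (7.10 to 10.3) over the 4 isotype libraries were apart. The ranges of all other neighbours overlapped, which does not mean that their order changed within a library. With anti-CSF1R the means were 15.0 for Ace, 10.4 for Nr4a1, 7.02 for Plac8, 4.69 for Chil3, 4.02 for Ly6c2, 2.74 for Ifitm6, 1.50 for Ccr2, 1.20 for Spn, 0.715 for Treml4 and 0.544 for F10. Ace, angiotensin-converting enzyme, is also a gene of endothelium, and Nr4a1 is an immediate early gene of many cells, and how much of their level in whole bone came from monocytes was not tested. In bulk bone, fewer monocytes and less RNA per monocyte cannot be told apart.

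None of the 10 genes differed between the groups at an adjusted p under 0.05, against 144 of 17028 genes tested (0.846%). Limma-voom and DESeq2 also called 0 of the 10, and so did the offset for GC and length, where 3.12% of all genes were called (2.46% lower and 0.662% higher). At an unadjusted p under 0.05 the edgeR test gave 1 of the 10, Ccr2, where 17.9% of all genes tested met that mark. The groups overlapped in CPM in each of the 10 genes, and 15.0% of all genes tested had groups that did not overlap. The fold changes were above 0 in all 6 classical genes and in 2 of the 4 nonclassical genes. That tally of 8 above and 2 below 0 went to 4 and 6 without anti-CSF1R 9, to 5 and 5 without isotype 5, and to 6 and 4 without isotype 2 or anti-CSF1R 8 and in DESeq2. The median log2 fold change was 0.23 in the classical and -0.02 in the nonclassical genes, beside 0.03 over all genes tested. The sign was not stable for the genes near 0. Against isotype 2 and 5 alone, the fold changes were above 0 in 5 of the 6 classical and 3 of the 4 nonclassical genes, and with RLE factors in place of TMM, Ly6c2 and Plac8 turned below 0 (6 above and 4 below in all).

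**Figure D1:**
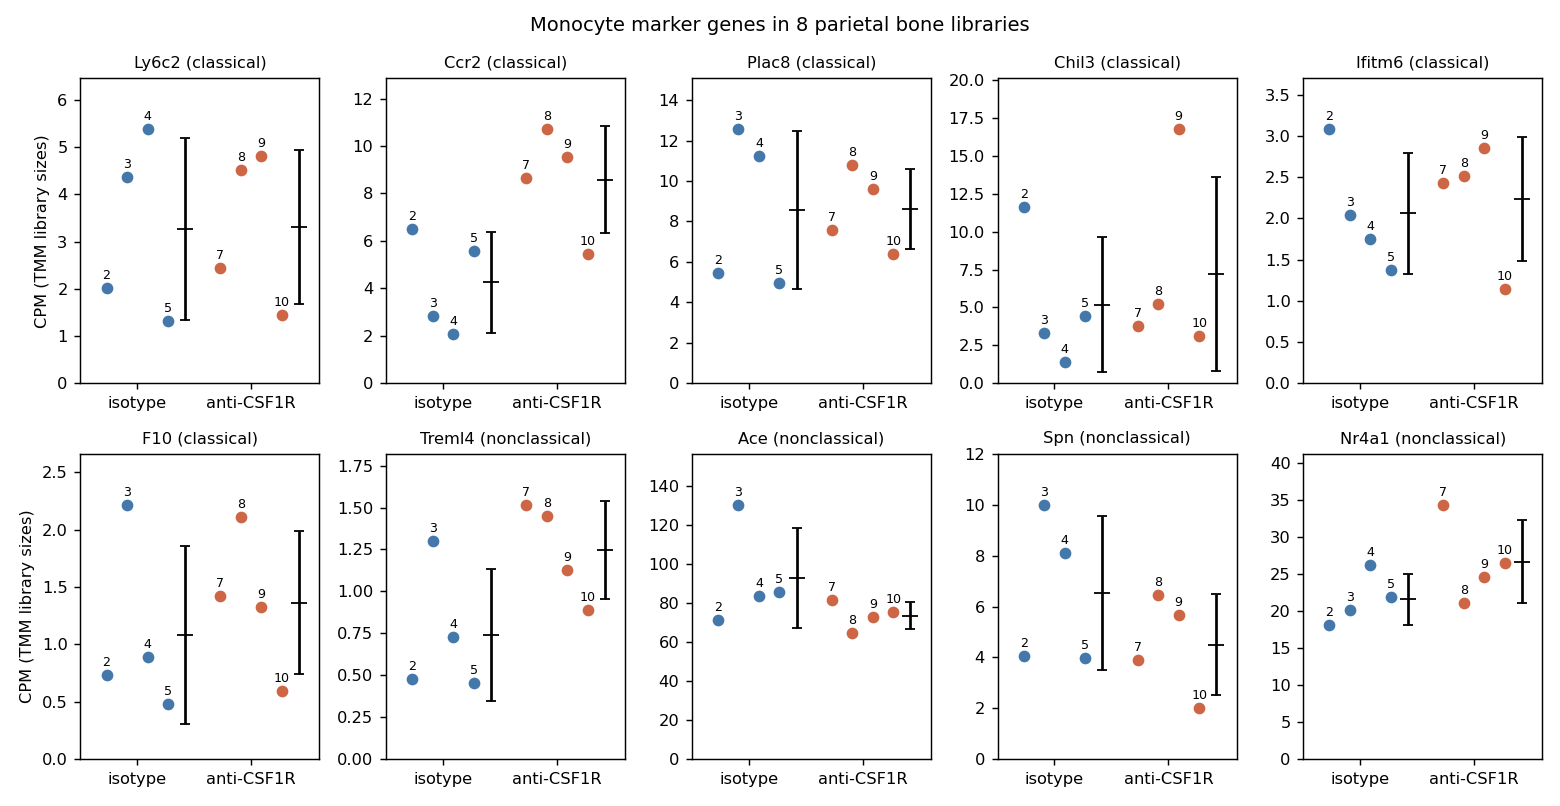
CPM (y axis, TMM library sizes) of each of the 10 genes in the 4 isotype (blue) and 4 anti-CSF1R (orange) libraries, numbered as in their titles; black marks are the group mean and SD. The groups overlapped in every gene, and isotype 3 and 4 sat apart from isotype 2 and 5 in most.

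Among the classical genes, Ccr2, the receptor for CCL2 that lets monocytes leave the marrow, had the largest fold change. It measured 6.51, 2.83, 2.08 and 5.57 CPM across isotype 2 to 5 and 8.67, 10.7, 9.52 and 5.45 CPM across anti-CSF1R 7 to 10. Anti-CSF1R 7, 8 and 9 lay above every isotype library, and anti-CSF1R 10 lay below isotype 2 and 5. The means were 4.25 ± 2.13 and 8.59 ± 2.25 CPM (SD, n = 4), 2.02-fold higher with anti-CSF1R, with a log2 fold change of 1.01 ± 0.38 (SE; 95% interval 0.16 to 1.86). The BH-adjusted p in edgeR was 0.278 over all genes. Ccr2 was lowest in isotype 3 and 4, the libraries rich in GC, and its own transcript had the lowest GC content of the 10 (39.4%). The log2 fold change was 0.51 against isotype 2 and 5 alone (edgeR BH-adjusted p = 0.405) and 0.34 under the offset for GC and length (edgeR BH-adjusted p = 0.296).

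Ly6c2, the gene of the Ly6C surface antigen, and Plac8, a small cysteine-rich protein of myeloid cells, had fold changes close to 0. Ly6c2 measured 2.01, 4.37, 5.38 and 1.31 CPM across isotype 2 to 5 and 2.44, 4.52, 4.82 and 1.44 CPM across anti-CSF1R 7 to 10. Its log2 fold change was 0.02 ± 0.51 (SE; 95% interval -1.13 to 1.16, edgeR BH-adjusted p = 0.982). The spread inside either group, 58.8% and 49.5% of the mean, was far wider than the difference, and the interval holds a doubling as well as a fall of that size. Plac8 measured 5.46, 12.6, 11.2 and 4.98 CPM in the isotype libraries and 7.57, 10.8, 9.61 and 6.40 CPM in the anti-CSF1R libraries. Its log2 fold change was 0.01 ± 0.33 (SE; 95% interval -0.74 to 0.76, edgeR BH-adjusted p = 0.986). Both genes were high in isotype 3 and 4. Against isotype 2 and 5 alone, the log2 fold change was 0.99 for Ly6c2 (edgeR BH-adjusted p = 0.460) and 0.72 for Plac8 (edgeR BH-adjusted p = 0.117). Under the offset it was 0.29 and 0.02. Ly6c1, the endothelial near copy, averaged 21.8 ± 7.74 CPM in isotype and 15.9 ± 1.50 CPM in anti-CSF1R bone (SD, n = 4; log2 fold change -0.45, edgeR BH-adjusted p = 0.290). The fitted value of Ly6c2 lay too close to 0 for a comparison of signs, and was below 0 under 6 of 17 alternatives.

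Chil3, the chitinase-like secreted protein also called Ym1, was the most variable of the 10 genes. It measured 11.6, 3.28, 1.42 and 4.42 CPM across isotype 2 to 5 and 3.80, 5.20, 16.8 and 3.10 CPM across anti-CSF1R 7 to 10. Isotype 2 and anti-CSF1R 9 were the highest libraries of their groups. The log2 fold change was 0.48 ± 0.70 (SE; edgeR BH-adjusted p = 0.624), and it went from -0.36 without anti-CSF1R 9 to 1.22 without isotype 2. It was -0.15 against isotype 2 and 5 alone and 0.39 under the offset. Chil3 is also made by immature neutrophils. Of 14 genes on the neutrophil list, 0 passed the threshold in edgeR. The sum of 13 of them, all but Mmp9, a protease that osteoclasts also make, ran from 142 to 329 CPM with isotype and from 121 to 341 CPM with anti-CSF1R, and no neutrophil gene listed was at 0 in all libraries. That sum was high in isotype 2 (327 CPM), isotype 3 (329 CPM) and anti-CSF1R 9 (341 CPM), and no more than 211 CPM in the other 5. Its part in the Chil3 values was not tested.

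Ifitm6, a leukocyte member of the interferon-induced transmembrane family, ran from 1.37 to 3.08 CPM with isotype and from 1.14 to 2.86 CPM with anti-CSF1R (log2 fold change 0.12 ± 0.34 SE, edgeR BH-adjusted p = 0.812). Both ranges overlapped almost fully, and the value was 0.01 against isotype 2 and 5 alone and 0.04 under the offset. F10 encodes coagulation factor X, which is best known as a liver product and is also expressed by monocytes and macrophages. It measured 0.734, 2.21, 0.892 and 0.481 CPM across isotype 2 to 5 and 1.42, 2.11, 1.33 and 0.594 CPM across anti-CSF1R 7 to 10. F10 was highest in isotype 3, and the groups spanned almost the same range (log2 fold change 0.35 ± 0.51 SE, edgeR BH-adjusted p = 0.625). Against isotype 2 and 5 alone the value was 1.17 (edgeR BH-adjusted p = 0.274), and under the offset 0.56. Leaving out 1 library gave 0.06 (without anti-CSF1R 8) to 0.96 (without isotype 3). All counts of F10 lay between 34 and 160 per library.

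Of the nonclassical genes, Treml4, an immunoglobulin-family receptor that marks this subset, was the least abundant and the only one of the 10 to pass under any alternative. It measured 0.479, 1.30, 0.726 and 0.452 CPM across isotype 2 to 5 and 1.52, 1.45, 1.13 and 0.891 CPM across anti-CSF1R 7 to 10, which rests on 30 to 110 counts per library. All 4 anti-CSF1R libraries lay above isotype 2, 4 and 5, and isotype 3 lay above anti-CSF1R 9 and 10. The means were 0.739 ± 0.393 and 1.25 ± 0.292 CPM (SD, n = 4), a log2 fold change of 0.76 ± 0.37 (SE; 95% interval -0.07 to 1.60, edgeR BH-adjusted p = 0.281). Against isotype 2 and 5 alone it was 1.42 and passed (edgeR BH-adjusted p = 0.0413), 1 of 10 marker genes called where 3.06% of all genes were called in that fit (2.38% lower and 0.679% higher). Under the offset for GC and length it was 0.97 (edgeR BH-adjusted p = 0.127). The adjusted p of Treml4 lay between 0.0413 and 0.487 over the 17 alternatives and its log2 fold change between 0.57 and 1.42, with no change of sign.

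The fold changes of Ace and Spn were below 0 and that of Nr4a1 above it. Ace measured 71.6, 130, 83.5 and 85.8 CPM across isotype 2 to 5 and 81.7, 64.6, 72.7 and 75.4 CPM across anti-CSF1R 7 to 10. Isotype 3 alone was high, and the fold change, -0.33 ± 0.20 (SE, log2; edgeR BH-adjusted p = 0.308), went to -0.10 against isotype 2 and 5 alone and to -0.19 under the offset. Beside it, 0 of 12 endothelial genes passed in edgeR, and their summed level was 826 to 1027 CPM with isotype and 966 to 1089 CPM with anti-CSF1R. The most abundant, Eng and Cdh5, had log2 fold changes of -0.02 and 0.24 (edgeR BH-adjusted p = 0.942 and 0.287), and that of Eng changed sign under 6 of 17 alternatives. Tek, Emcn, Flt1 and Kdr had 0.85, 0.77, 0.62 and 0.62, and of the 12 genes 7 lay above 0 and 5 below. Against isotype 2 and 5 alone, Vwf and Emcn passed as higher (log2 fold change 0.54 and 0.34, edgeR BH-adjusted p = 0.00455 and 0.0269). In that fit 0.679% of all genes were called higher. The part of endothelium in the Ace values was not tested.

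Spn, the gene of the surface sialoglycoprotein CD43, is shared with T cells, B cell precursors and progenitors. It measured 4.04, 10.003, 8.12 and 3.96 CPM across isotype 2 to 5 and 3.88, 6.44, 5.68 and 2.01 CPM across anti-CSF1R 7 to 10. The high values were in isotype 3 and 4 and the lowest in anti-CSF1R 10. The log2 fold change of -0.53 ± 0.42 (SE, edgeR BH-adjusted p = 0.380) turned to 0.17 against isotype 2 and 5 alone and was -0.34 under the offset. The summed T and NK cell genes, 10 in all, ran from 1.55 to 4.45 CPM with isotype and 1.22 to 2.83 CPM with anti-CSF1R, with 0 of the 5 tested past the threshold in edgeR. The 10 B cell genes summed to 110 to 149 and 112 to 157 CPM, also with 0 past it. Neither list had a gene at 0 in all libraries, and their part in the Spn values was not tested.

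Nr4a1, also called Nur77, ran from 18.1 to 26.2 CPM with isotype and from 21.1 to 34.3 CPM with anti-CSF1R, and had the smallest relative spread of the 10 genes in isotype bone (SD 16.0% of the mean). Its log2 fold change was 0.30 ± 0.19 (SE, edgeR BH-adjusted p = 0.315), 0.41 against isotype 2 and 5 alone and 0.58 with the offset (edgeR BH-adjusted p = 0.402 and 0.122). The highest value was in anti-CSF1R 7. That library also had the highest Fos (122 CPM, against 16.1 to 66.2 CPM in the other 7) and Fosb (91.8 CPM, against 3.11 to 9.05 CPM), genes induced within minutes of cell stimulation. Of the 14 immediate early genes listed, 0 passed in edgeR, and their sum was 389 to 481 CPM with isotype and 342 to 715 CPM with anti-CSF1R. Their part in the Nr4a1 values was not tested. Without anti-CSF1R 7 the log2 fold change of Nr4a1 was 0.16 (edgeR BH-adjusted p = 0.585).

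**Figure D2:**
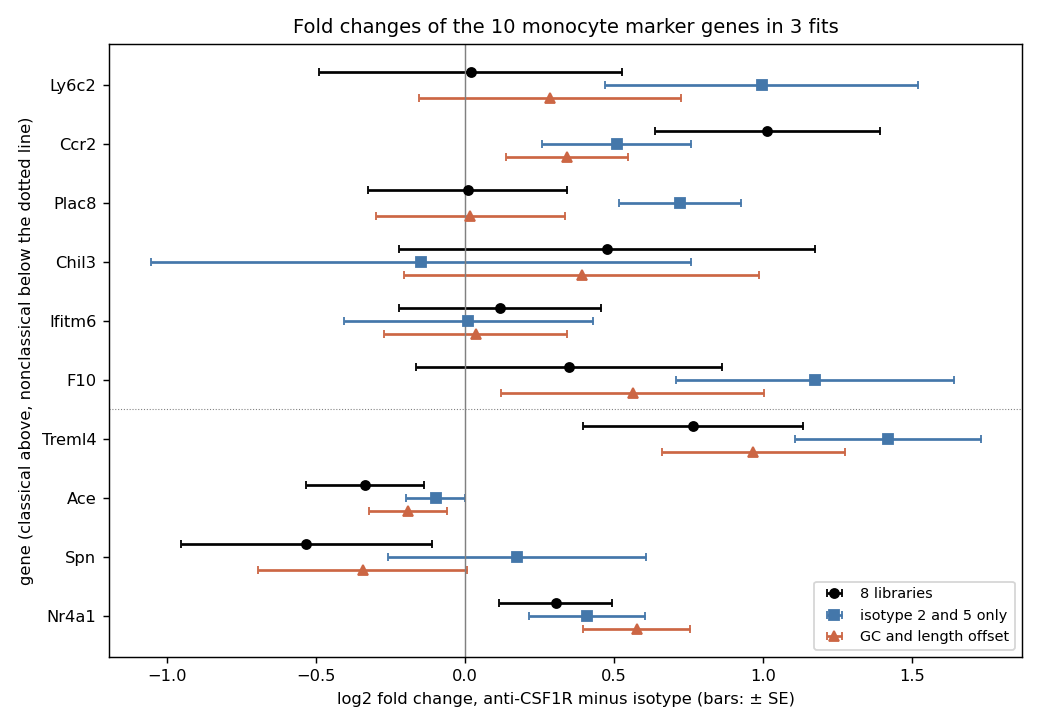
Log2 fold change (x axis, anti-CSF1R minus isotype) of each of the 10 genes with its SE, from all 8 libraries (black circles), with isotype 2 and 5 as the only controls (blue squares) and under the offset for GC and length (orange triangles). Of the 10 genes, 7 lie above 0 in all 3 fits (not Chil3, Ace and Spn), and Ly6c2, Plac8 and F10 move most to the right when isotype 3 and 4 are left out.

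In 9 of the 10 genes, all but Nr4a1, isotype 3 and 4 differed from isotype 2 and 5 by more than the fitted difference between treatments. The log2 ratio of the mean CPM in isotype 3 and 4 to that in isotype 2 and 5 was 1.55 for Ly6c2, 1.35 for F10, 1.19 for Plac8, 1.18 for Spn, 1.12 for Treml4, 0.44 for Ace and 0.21 for Nr4a1. It was -0.23 for Ifitm6, -1.30 for Ccr2 and -1.77 for Chil3. The 3 genes below 0 had the lowest GC content of the 10, from 39.4% to 45.9%, and the other 7 had 48.0% to 57.0%. Progenitor genes were uneven over the same libraries. Mpo, the myeloperoxidase gene of granulocyte and monocyte progenitors, measured 35.5 and 35.3 CPM in isotype 3 and 4 and 7.57 and 4.47 CPM in isotype 2 and 5. Of the 10 progenitor genes listed, 6 were higher and 3 lower in both of isotype 3 and 4 than in both of isotype 2 and 5. The most abundant of them, Cd34 and Sox4, had log2 fold changes of -0.27 and 0.30 between the treatments (edgeR BH-adjusted p = 0.324 and 0.374), each of the opposite sign under 1 of 17 alternatives. The summed level of the list ran from 267 to 298 CPM with isotype and 265 to 291 CPM with anti-CSF1R. None of the 10 was at 0 in all libraries, and 0 of 10 passed between the treatment groups in edgeR. Cd34 and Sox4, which averaged 119 and 110 CPM in isotype bone, made up most of that sum. Elane, Mpo, Prtn3 and Ctsg had log2 fold changes of -1.03, -0.54, -0.72 and -0.64 between the treatments. Against isotype 2 and 5 alone the values were 1.46, 1.25, 1.20 and 1.24, and none passed in either edgeR fit. On all libraries 6 of the 10 were below 0 and 4 above it. The parts of GC content and of progenitors in the monocyte values were not tested.

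**Figure D3:**
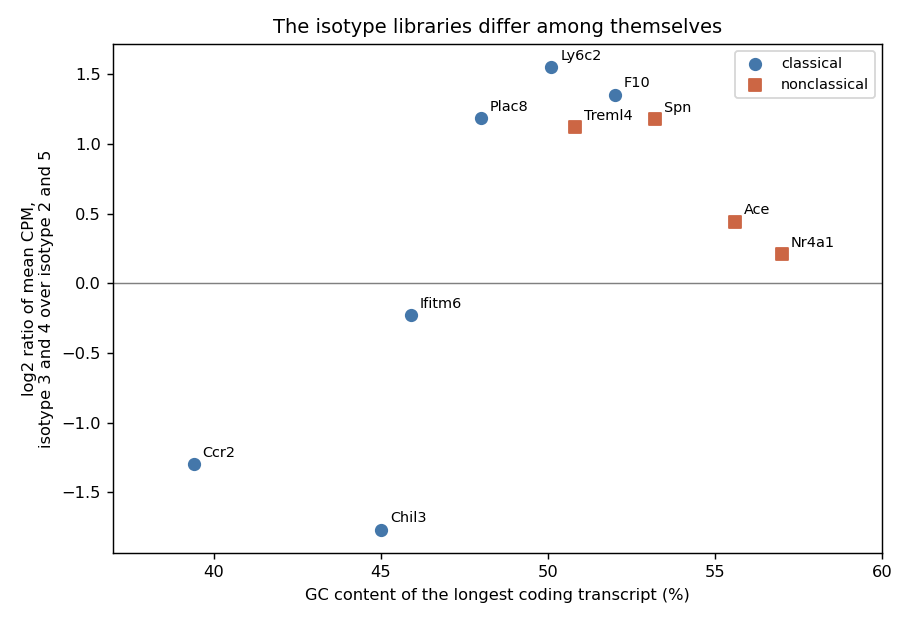
Log2 ratio of mean CPM in isotype 3 and 4 over isotype 2 and 5 (y axis) against the GC content in percent of the longest coding transcript (x axis), for classical (circles) and nonclassical (squares) genes. Ccr2, Chil3 and Ifitm6, below 46% GC, lie under 0, and the other 7 genes lie above it.

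The mean log2 CPM over the 6 classical genes was 1.83, 1.88, 1.38 and 1.15 in isotype 2 to 5 and 1.85, 2.31, 2.47 and 1.15 in anti-CSF1R 7 to 10. Anti-CSF1R 8 and 9 were highest and anti-CSF1R 10 and isotype 5 lowest. Over the 4 nonclassical genes it was 2.85, 3.77, 3.43 and 2.95 in isotype 2 to 5 and 3.51, 3.42, 3.38 and 2.97 in anti-CSF1R 7 to 10. By this mean, isotype 3 was highest and the anti-CSF1R libraries lay inside the isotype range. By the median over the 4 genes, isotype 4 was highest (3.87) and anti-CSF1R 10 (2.88) lay below every isotype library (3.10 to 3.87).

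Other monocyte genes, from lists that do not hold these 10, had fold changes of both signs. Of 15 further genes of classical monocytes, 1 fell and 0 rose (background 0.822% of genes lower and 0.0235% higher), with a median log2 fold change of -0.62. The gene that fell was Ccr1, a receptor for CCL3 and CCL5 that osteoclasts and macrophages also carry, from 31.9 ± 3.58 to 10.8 ± 2.59 CPM (edgeR BH-adjusted p = 0.0164). It was 2.95-fold lower, and its 4 isotype libraries lay above all anti-CSF1R libraries. Of those not past the threshold, Cd14, the lipopolysaccharide co-receptor, had a log2 fold change of -1.55 (edgeR BH-adjusted p = 0.0838) and Clec4a3, an inhibitory lectin receptor, -0.98 (edgeR BH-adjusted p = 0.116). S100a4, a calcium-binding protein of myeloid and stromal cells, had -1.50 (edgeR BH-adjusted p = 0.116), with 31.8 to 99.8 CPM in isotype and 16.0 to 22.6 CPM in anti-CSF1R bone. Ms4a4c, a membrane gene of classical monocytes, measured 0.254 and 0.645 CPM (log2 fold change 1.33, edgeR BH-adjusted p = 0.131). The call of Ccr1 was kept against isotype 2 and 5 alone and with the offset. Against isotype 2 and 5 alone, 4 of the 15 passed (3.06% of all genes did), Ccr1, Clec4a3 and S100a4 as lower and Vcan, the gene of the proteoglycan versican, as higher (log2 fold change 0.46, edgeR BH-adjusted p = 0.0306). Under the offset 4 passed (3.12% of all genes did), Ccr1, Clec4a3, S100a4 and Cd14, all as lower. It was lost without anti-CSF1R 7, 8 or 9 (edgeR BH-adjusted p = 0.0803, 0.0812 and 0.0870).

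Of 9 further nonclassical genes tested, 1 fell and 0 rose (background 0.822% of genes lower and 0.0235% higher). The fold changes were below 0 in 6 of the 9 and above it in 3, with a median of -0.34 on the log2 scale. Cx3cr1, the fractalkine receptor that microglia and bone macrophages also carry, fell from 10.2, 9.09, 17.1 and 14.8 CPM across isotype 2 to 5 to 3.20, 4.61, 3.61 and 2.08 CPM across anti-CSF1R 7 to 10. The log2 fold change was -1.92 ± 0.30 (SE, edgeR BH-adjusted p = 0.0267). The call was lost without isotype 4 or after removal of any 1 anti-CSF1R library (edgeR BH-adjusted p = 0.0660 to 0.119), and with library size alone (0.0654). Adgre4, an adhesion receptor of monocytes and some macrophages, had a difference of the opposite sign. It measured 0.862, 0.649, 0.495 and 1.16 CPM across isotype 2 to 5 and 2.22, 2.72, 2.11 and 1.93 CPM across anti-CSF1R 7 to 10. All 4 anti-CSF1R libraries lay above all isotype libraries. Its log2 fold change of 1.50 ± 0.28 (SE) missed the threshold on all libraries (edgeR BH-adjusted p = 0.0519). It passed against isotype 2 and 5 alone at 1.15 and with the offset at 0.91 (edgeR BH-adjusted p = 0.0314 and 0.0487), and the 17 alternatives spanned 2.59e-05 to 0.187. Eno3, an enolase gene shared with muscle, had a log2 fold change of -0.55 (edgeR BH-adjusted p = 0.278). Itgal and Pou2f2 had log2 fold changes of 0.27 and 0.33, and Fcgr4 -0.81 (edgeR BH-adjusted p = 0.421, 0.444 and 0.285). Cd300e did not pass the filter, at 0.0283 to 0.0991 CPM with isotype and 0.0660 to 0.312 CPM with anti-CSF1R.

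Of 5 ligands of CCR2 and CX3CR1 listed, 0 passed in edgeR. Ccl2, the main CCR2 ligand, measured 0.385 ± 0.263 and 0.845 ± 0.329 CPM, and Ccl12, a second ligand of that receptor in mice, ran from 0.447 to 1.13 CPM with isotype and from 0.0264 to 0.317 CPM with anti-CSF1R (edgeR BH-adjusted p = 0.278 and 0.109). Ccl12 passed with the offset (edgeR BH-adjusted p = 0.0355). Its values in anti-CSF1R 7 and 8, 0.0283 and 0.0264 CPM, lay under the level of 3 counts in those libraries (0.0425 and 0.0396 CPM). Cx3cl1, fractalkine, measured 10.1 ± 2.14 and 9.93 ± 1.36 CPM (log2 fold change -0.02, edgeR BH-adjusted p = 0.937).

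Of 10 transcription factor genes of the monocyte lineage, 1 fell and 0 rose (background 0.822% of genes lower and 0.0235% higher). Spi1, the gene of PU.1, which macrophages, osteoclasts and B cells use too, fell 4.22-fold, from 65.1 ± 30.7 to 15.4 ± 3.39 CPM (edgeR BH-adjusted p = 0.0318). On the log2 scale this was -2.08, or -1.41 against isotype 2 and 5 alone (edgeR BH-adjusted p = 0.0207), and the call was lost without isotype 4 or any 1 of the anti-CSF1R libraries (0.0829 to 0.125). Cebpa, a factor of myeloid progenitors, had a log2 fold change of -0.93, Zeb2 of 0.59 and Runx1 of 0.43 (edgeR BH-adjusted p = 0.277, 0.307 and 0.313), and that of Zeb2 turned to below 0 under 1 of 17 alternatives. Irf8, which directs progenitors to the monocyte fate, measured 8.03 ± 3.24 and 6.04 ± 1.79 CPM (log2 fold change -0.41, edgeR BH-adjusted p = 0.389). Klf4, a factor of monocytes that skeletal and vascular cells share, had a log2 fold change of -0.05 (edgeR BH-adjusted p = 0.850).

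Genes of macrophages and osteoclasts, mature cells that depend on CSF1R, were called in larger number than the 0 of 10 monocyte markers. Of 15 macrophage genes tested, Csf1r among them, 8 fell, where 0.822% of all genes tested did. The list had a median log2 fold change of -1.99 and summed to 631 to 1039 CPM with isotype and 289 to 347 CPM with anti-CSF1R. The list was not uniform, with 11 fold changes below 0 and 4 above it. Those above were Cd163, Mertk, Maf and Timd4 (log2 fold change 0.54, 0.54, 0.51 and 0.19), none past the threshold in edgeR. That of Timd4 changed sign under 3 of 17 alternatives. Of 12 osteoclast genes, 9 fell, with a median of -1.71. Leaving out anti-CSF1R 7 or 8 left 0 calls in either list, as over all genes. Without anti-CSF1R 9 there were 0 macrophage and 1 osteoclast calls, without anti-CSF1R 10 there were 3 and 2, and without isotype 4 there were 6 and 2. Over all genes, those fits called 4, 14 and 35. Of 12 dendritic cell genes, 1 fell, Itgax, the gene of CD11c that macrophages and osteoclasts share (log2 fold change -1.41, edgeR BH-adjusted p = 0.0491). It passed in 8 of 17 alternatives and missed without isotype 3 or 4 and without each anti-CSF1R library (0.0940 to 0.196), with library size alone (0.0803), in limma-voom (0.0567) and with the filter at 1 CPM (0.0539). No test of the difference between those lists and the monocyte genes was made.

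**Figure D4:**
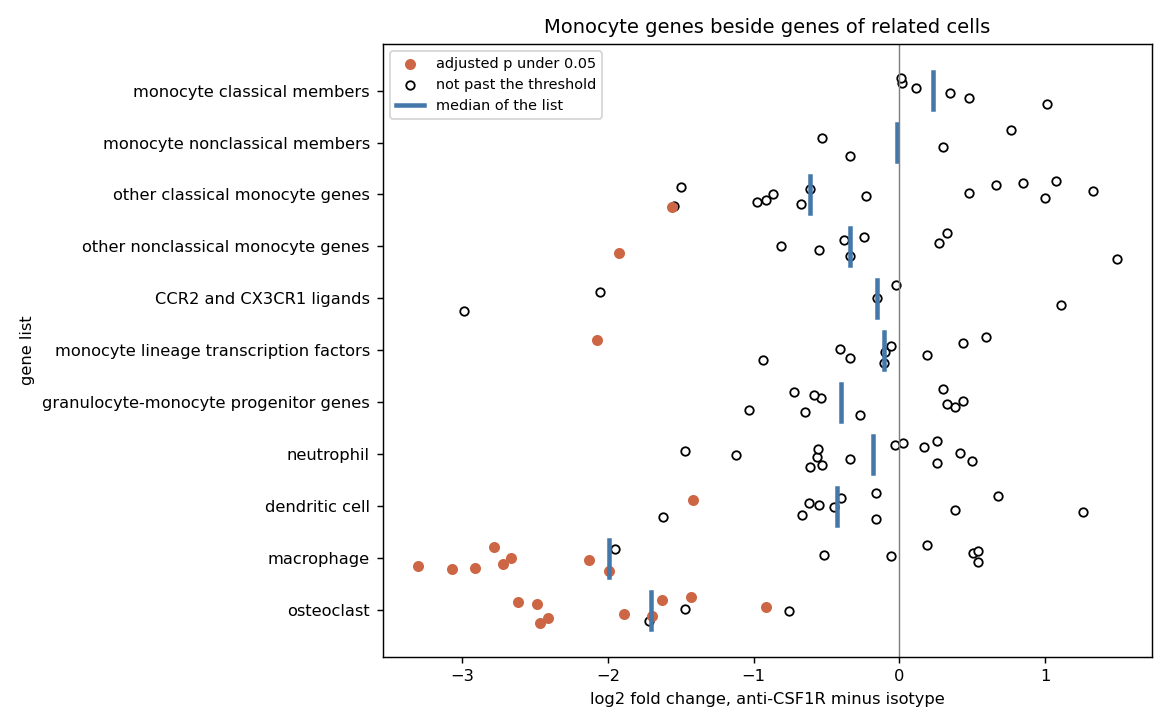
Log2 fold change (x axis, anti-CSF1R minus isotype, 8 libraries) of every tested gene in the monocyte lists and in lists of related cells (y axis); filled points passed an adjusted p of 0.05, and the bar is the median of the list. The 10 monocyte markers lie between -0.53 and 1.01 with 0 filled points, while 8 macrophage and 9 osteoclast genes are filled, all below 0.

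The genes whose library profile was closest to that of each marker, by root mean square difference of centred log2 CPM over the 8 libraries among 14249 genes, are given for each marker as a description. Ccr2 lay closest to Vipr2, Pi15 and Nxpe2 (0.151, 0.168 and 0.175), and Ly6c2 to Ly6a2, Rab44 and Cma1 (0.336, 0.354 and 0.359). Those of Plac8 were Cdh4, Map4k1 and Slc2a4 (0.138, 0.187 and 0.194). Ifitm6 lay closest to S100a9, Igsf5 and S100a8 (0.222, 0.243 and 0.245), of which the S100 pair encode calprotectin, abundant in neutrophils. Chil3 had Cstdc5, Cybb and Stfa2l1 as its nearest genes (0.515, 0.579 and 0.590), and Cybb encodes a subunit of the phagocyte oxidase. F10 lay closest to Tspo2, Alas2 and Epor (0.298, 0.299 and 0.343), of which Alas2 makes haem in red cell precursors and Epor is the erythropoietin receptor. Treml4 lay closest to Selp, Pilra and Cxcl12 (0.262, 0.311 and 0.324), and Spn to Ccl6, E230016K23Rik and Adap1 (0.180, 0.191 and 0.192). Those of Ace were Snhg20, Prss53 and 2810001G20Rik (0.0684, 0.0690 and 0.0722), and those of Nr4a1 were Rab6b, Ccdc57 and Cdk5rap1 (0.154, 0.160 and 0.172). No marker had another of the 10 among its nearest 3. Within the 10, Ly6c2 and Plac8 were the closest pair (0.370), followed by F10 and Treml4 (0.396).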

How the data were processed

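Poly(A) RNA of 8 parietal bone libraries (4 isotype, 4 anti-CSF1R) was compared. The values are raw counts per gene symbol deposited by the authors. STAR 2.7.10b and featureCounts 1.6.3, and the builds GRCm38 and GRCm39 with no role for either, are named in the submitters' processing notes; the sources used here do not give the annotation, the strand setting or the treatment of multi-mapping reads, and no coordinates are printed. Counts were tested with edgeR 4.0.16 (R 4.3.3; filterByExpr, TMM, robust quasi-likelihood F-test, Benjamini-Hochberg, BH, over 17028 genes, threshold 0.05). CPM use TMM library sizes; scores use a prior count of 2. Log2 fold changes are anti-CSF1R minus isotype. The level of 3 counts, taken as the limit of detection, lies at 0.0396 to 0.0573 CPM by library, for counting error alone. It takes each count as independent, and with both mates counted fewer than 3 fragments lie behind it, so the true limit is higher. Within groups, squared differences between pairs of libraries were at least 8.74 times those of counting noise (median over 8632 genes), so none was a copy. That noise takes each count as independent.

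The alternatives tried were DESeq2 1.42.0, limma-voom (limma 3.58.1), RLE factors, library size alone, no filter, 1 CPM in 4 libraries, isotype 2 and 5 only, counts halved, each library left out, and an offset from natural splines (5 degrees of freedom each) on GC content and length of the longest coding GENCODE M21 transcript, which 94.0% of tested genes had. The scripts were tested on simulated data. The marker genes and the 20 gene lists were chosen with earlier results of these data known. Named genes are the 10 markers, their close paralogs, the 3 nearest profiles of each (mean log2 CPM of at least 0), Csf1r and, from each list, the 4 lowest in p at most, or the 2 highest in CPM where none passed; some are left out where they bear on no marker. Ms4a4c, Itgal, Pou2f2, Cd300e, Ccl12, Irf8, Klf4, Mpo, Fos, Fosb and F13a1 were chosen after their values were seen. Elane, Prtn3, Ctsg, Cd163, Mertk, Maf, Timd4, Tek, Emcn, Flt1, Kdr and Vwf were also chosen in that way. Of the listed genes, 2 were not analysed here, and some values are not reported here. The groups have no replicate number in common.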

Additional observations from a re-analysis of the deposited data

Results flagged for a closer look

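In 2 of 22 groups of 4 libraries examined (the 10 markers and Csf1r, each in both treatment groups), a single library lay far from the other 3. Chance alone flags about 1 in 20 such groups. Chil3 measured 16.8 CPM in anti-CSF1R 9, against 3.10 to 5.20 CPM in the other 3 anti-CSF1R libraries. Csf1r measured 39.4 CPM in anti-CSF1R 10, against 61.4 to 64.4 CPM in the other 3. No explanation was tested for either.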

How the results depend on the processing

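The count of marker genes called was 0 under 16 of 17 alternatives and 1, Treml4, against isotype 2 and 5 alone. Of 170 values of the 10 markers under the alternatives, 17 had the opposite sign from the fit on all libraries, 6 of them in Ly6c2, 6 in Plac8, 2 in Chil3, 2 in Ifitm6 and 1 in Spn; none of these was past the threshold. Over all genes, 144 were called in edgeR on all libraries, 777 by DESeq2, 536 against isotype 2 and 5 alone and 499 under the offset for GC and length, and 0 to 260 when 1 library was left out (260 without isotype 2, 35 without isotype 4, 234 without isotype 5, and 0, 0, 4 and 14 without anti-CSF1R 7, 8, 9 and 10). Without anti-CSF1R 7 and 8, 1903 and 1597 genes had an unadjusted p under 0.05 in edgeR. The share of calls that were higher was 2.78% on all libraries, 19.0% by DESeq2, 22.2% against isotype 2 and 5 alone and 21.2% with the offset. Library size alone moved the median log2 fold change of all genes from 0.03 to 0.19. The cause of these shifts was not tested. The difference of the nonclassical mean log2 CPM between the groups turned from 0.07 to -0.12 with the median over members, a shift smaller than the spread of libraries, and that of the classical genes went from 0.39 to 0.46. A prior count of 0.5 gave 0.07 and 0.39. No paired analysis was possible because the groups share no replicate number. Depth limits Treml4 and F10 most, with 30 to 110 and 34 to 160 counts per library.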

Other observations

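Of 11 coagulation genes, F10 among them, 1 fell and 0 rose, with 8 fold changes above 0 and 3 below. For this and the lists below, the background was 0.822% of genes lower and 0.0235% higher. Serpind1, the gene of the thrombin inhibitor heparin cofactor II, had a log2 fold change of -3.13 (edgeR BH-adjusted p = 0.0156) and was called in 13 of 17 alternatives, and missed the threshold each time an anti-CSF1R library was left out. F5, coagulation factor V, which platelets carry, measured 2.03, 1.15, 0.330 and 1.84 CPM across isotype 2 to 5 and 3.20, 7.74, 3.98 and 1.09 CPM across anti-CSF1R 7 to 10 (log2 fold change 1.58, edgeR BH-adjusted p = 0.278). Thbd and F8 had log2 fold changes of 0.62 and 0.77 (edgeR BH-adjusted p = 0.113 and 0.117). Against isotype 2 and 5 alone both passed as higher (edgeR BH-adjusted p = 0.0172 and 0.0294), where 0.679% of all genes did. Under the offset for GC and length Thbd passed as higher, and F8 turned to -0.30 (edgeR BH-adjusted p = 0.0209 and 0.584). F13a1, the factor XIII chain made by monocytes and macrophages, had a log2 fold change of 0.17 (edgeR BH-adjusted p = 0.690). Of 10 interferon-stimulated genes tested, 0 passed in edgeR, with a median log2 fold change of 0.12. Their sum was highest in isotype 5, at 91.2 CPM against 40.9 to 71.5 CPM in the other 7 libraries. Of 6 skeletal muscle genes tested, 1 fell, Ttn, the gene of titin (log2 fold change -2.31, edgeR BH-adjusted p = 0.0239), and it missed the threshold without each anti-CSF1R library in turn (0.0882 to 0.106). All 6 had fold changes below 0 (median -2.12 on the log2 scale), and the 10 muscle genes listed summed to 43.4, 82.6, 17.1 and 20.2 CPM over isotype 2 to 5 and 10.95 to 12.3 CPM with anti-CSF1R, so isotype 2 and 3 were high and the groups did not overlap. Of 10 osteoblast genes, 0 passed in edgeR, and of 17 close paralogs of the markers tested, 1 fell, Ccr1.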
